A study of Bubalus bubalis with 8 samples.

Results

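The CXC and CC chemokines described here are CXCL2, CXCL3, CXCL5, CXCL10, IL8 (also named CXCL8), CCL2, CCL3, CCL4, CCL5 and CCL20. Their probes were found by the gene name that the array's design gives to each probe. In all, 23 of the 43653 probes on the array carried one of these names, and they covered 9 of the 10 genes. CXCL3 had 1 probe, CXCL2 and CCL2 had 2 each, and IL8, CCL3, CCL4, CXCL10, CCL5 and CCL20 had 3 each. No probe carried the name CXCL5, so that gene is not analysed here.

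Mammary epithelial cells (MECs) of the riverine buffalo (Bubalus bubalis) were grown as a primary culture from the gland of 1 animal and used at passage 10. Unstressed cells (CTR) stayed at 37 °C with 5% CO2. The other cells spent 1 h at 42 °C, went back to 37 °C and were collected at 7 times, namely after 30 min, after 2 h, 4 h and 8 h, and later after 12 h, 16 h and 24 h. RNA of each of these 8 conditions was labelled with 1 dye and put on 1 bovine array, so no condition has a second array, no test was possible and no p-value is given.

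Chemokines are small secreted proteins that draw leukocytes along a gradient by binding receptors on their surface. CXC chemokines with the glutamate-leucine-arginine (ELR) motif, such as CXCL2, CXCL3 and IL8, mainly attract neutrophils through CXCR1 and CXCR2. CCL2, CCL3 and CCL4 attract monocytes and other cells, and CXCL10, CCL5 and CCL20 attract T cells, CXCL10 through CXCR3 and CCL20 through CCR6. In the udder, the epithelium is a source of such signals when bacteria enter the gland, and NF-kB and cytokines such as IL1 and TNF are known inducers of many chemokine genes.

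The level used below is the log2 intensity of a probe minus the 75th percentile of its array, and a change is the difference of a level from CTR. Levels are read along the arrays of 1 probe, since the brightness of different probes cannot be compared. A probe was taken as detected where the scanner software marked it well above background. Where it was detected on only 1 of the arrays compared, the dim array was given its detection limit, which is the lowest level of any probe so marked there, or the measured level if that was above the limit, and the fold is then a bound, written as at least that value. A probe was counted as higher or lower when its change, or its bound, reached 3-fold. The SD between spots of 1 bright probe lay between 0.19 and 0.50 (log2) on the arrays, 30 min aside, and the error given after a change is the root of the summed squares of the SDs of both arrays. At 30 min the SD between spots of the scanner file was 2.03, and the SD of CTR, 0.21, was used in its place. The error of a change holds for spots of the same array and does not cover differences between cultures.

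The arrays lay on 2 slides. Slide 1 held CTR, 8 h, 12 h and 24 h, whereas slide 2 held 30 min, 2 h, 4 h and 16 h, and for these 4 time points slide and heat cannot be told apart when they are set against CTR. Changes within a slide are therefore given beside them. The scanner file of the 30 min array was not sound in its lower rows, as Pearson's r between its changes and those of the deposited log2 values was 0.92 over 6068 probes in array rows 1 to 200 and 0.37 over 6262 probes from row 340 down. For this reason the deposited log2 values stand in for the scanner file at 30 min. A rectangle in the middle rows of the CTR array was dark, with bright probes around the CCL5 probe A_73_P107666 lower on CTR than elsewhere by a median of -3.27 (log2). It held 3357 probes, among them 1 of IL8 (A_73_118449) and 1 of CCL5 (A_73_P107666), which are left out of all counts of higher and lower probes and get no bound against CTR. The heat shock gene HSPA1A, detected by its probe A_73_104629 on all arrays, had a level of 2.67 in CTR and its highest level of 7.72 at 8 h. The epithelial keratin KRT5, by probe A_73_P251266, was detected on all 8 arrays with levels from 6.04 at 2 h to 7.91 in CTR.

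The probes are bovine 60-base sequences, and what each one can read depends on where it lies. Coordinates are those of the array's design on the bovine build Btau_3.1. The CXC genes lay on chromosome 6, CCL2, CCL3, CCL4 and CCL5 on chromosome 19, and CCL20 on chromosome 2. The sequences below are shown because the results rest on them, namely probes of each class that were bright at 30 min and 2 h, and a CXCL10 probe that stayed dim. The CCL5 probe among them is the one in the dark region, read here within slide 2 only, and the changes of CCL5 from CTR come from its other 2 probes. They are written 5′ to 3′ in the sense of the probe.

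IL8 A_73_P107676, chr6:91792569-91792628, plus strand: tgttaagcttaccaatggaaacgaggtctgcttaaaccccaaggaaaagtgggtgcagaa
CXCL2 A_73_P031501, bases 1 to 48 up to the stop codon, chr6:92072452-92073356, plus strand: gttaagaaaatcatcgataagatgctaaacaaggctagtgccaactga
CCL2 A_73_P107661, chr19:15665710-15665769, minus strand: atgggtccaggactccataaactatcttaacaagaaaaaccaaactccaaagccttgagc
CCL3 A_73_119009, chr19:13822185-13823099, plus strand: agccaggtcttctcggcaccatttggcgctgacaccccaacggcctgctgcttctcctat
CCL3 A_73_P102451, chr19:13823140-13823502, plus strand: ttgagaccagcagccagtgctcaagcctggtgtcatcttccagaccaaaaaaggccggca
CCL5 A_73_P107666, chr19:13977162-13977221, plus strand: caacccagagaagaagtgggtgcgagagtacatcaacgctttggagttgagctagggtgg
CXCL10 A_73_P102356, chr6:94129917-94130405, minus strand: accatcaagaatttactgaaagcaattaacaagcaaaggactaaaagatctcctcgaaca

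The probes A_73_119009 and A_73_P102451 of CCL3, A_73_P031501 of CXCL2 and A_73_P102356 of CXCL10 spanned 915, 363, 905 and 489 bases of the genome with their 60 bases, so these 4 cross an exon junction. The accessions of A_73_P031501 name 2 RefSeq transcripts, that of CXCL2 and that of GRO1 (the bovine CXCL1), so its signal cannot be given to one of them. The other CXCL2 probe, A_73_114724, lies at chr6:91929433-91929492 and names a different RefSeq transcript, so the name CXCL2 stands here for a pair of loci.

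The probes A_73_114724 of CXCL2 and A_73_108688 of CXCL3 share 45 of 55 aligned bases, the closest pair between any 2 member genes. A stretch of 30 bases shows it, with the 3 bases that differ in capitals.

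CXCL2 A_73_114724: ttTcttgtaaggcaCaatgccttgtttCat
CXCL3 A_73_108688: ttGcttgtaaggcaTaatgccttgtttAat

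These 2 probes did not follow each other at 4 h and 16 h, when the CXCL3 probe was bright and the CXCL2 probe was not well above background.

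Among the 3 CCL20 probes, A_73_P110576 and A_73_P052371 cover the same stretch of the transcript over 46 bases, of which 41 are identical. Counted from the 5′ end of A_73_P110576, the differences are A9G, C30T, C31T, C32T and A36G, with the base of A_73_P110576 first. The last 4 of them stand in capitals below.

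CCL20 A_73_P110576: aaaaatggatgctCCCtggAatggaattgg
CCL20 A_73_P052371: aaaaatggatgctTTTtggGatggaattgg

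Only the first of these 2 probes was detected, at 30 min and 2 h. The second had no position on the build. The third CCL20 probe, A_73_P120886, was placed on the minus strand at chr2:120591126-120591185, whereas A_73_P110576 was placed on the plus strand at chr2:120594117-120594176. Likewise A_73_P121271 of CCL3 ran on the minus strand and both other CCL3 probes on the plus strand. These 2 probes in reverse direction were dim on every array.

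In all, 17 of the 23 probes were detected on at least 1 array. The 6 that were dim on all 8 arrays were A_73_P102356 and A_73_P107671 of CXCL10, A_73_P052371 and A_73_P120886 of CCL20, A_73_P121271 of CCL3 and A_73_P137086 of CCL4. Their median GC content of 43.3% was close to the 45.0% of the detected ones and of all probes. No spot of a member probe was saturated on any array.

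**Figure D1:**
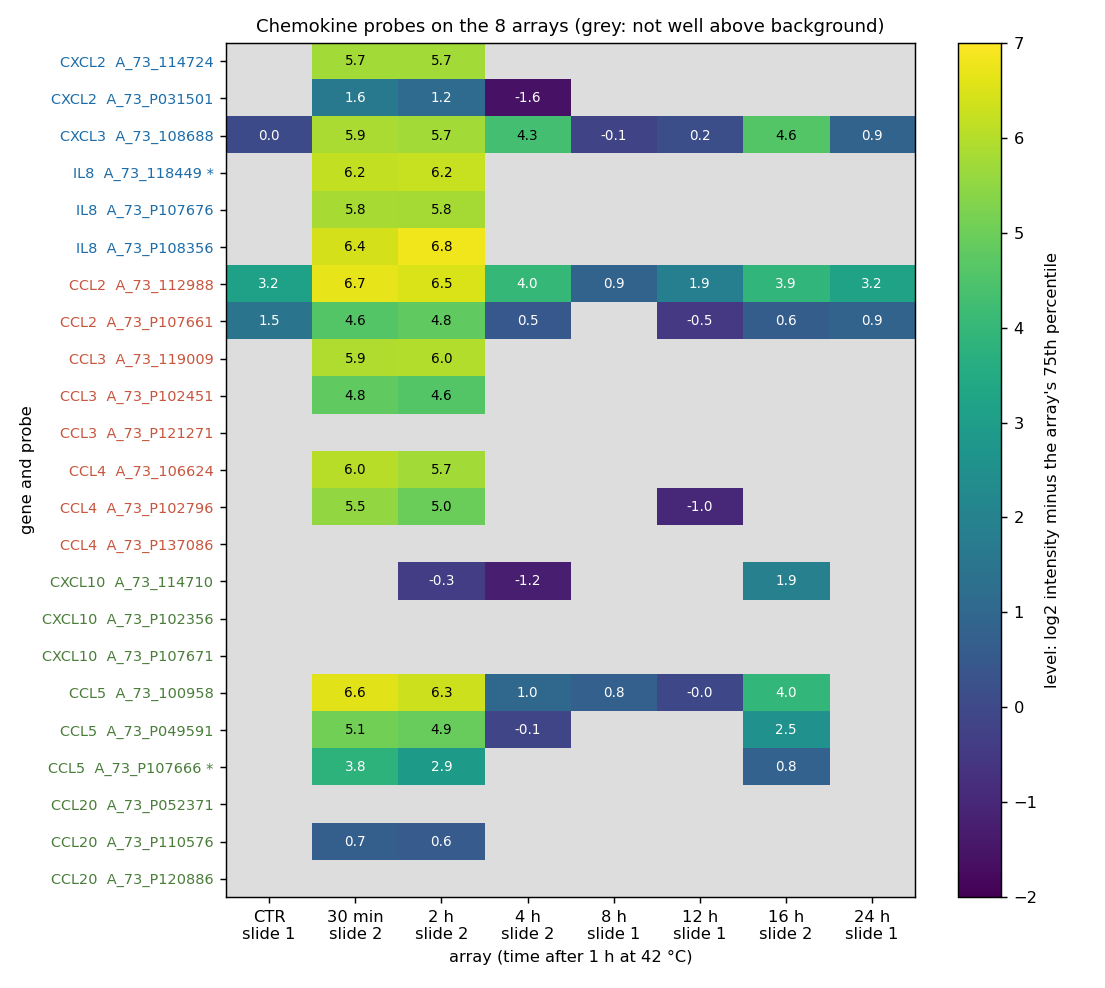
Levels of the 23 chemokine probes (rows) on the 8 arrays (columns, with their slide), as log2 intensity minus the array's 75th percentile. Grey cells were not well above background, an asterisk marks the 2 probes in the dark region of the CTR array, label colours mark neutrophil (blue), monocyte (red) and T cell (green) attractants, and rows are read along, not down. Of the 23 rows, 8 are bright at 30 min and 2 h only and 6 are grey throughout, while the CXCL3 row stays bright at 4 h and 16 h.

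At 30 min and 2 h after heat, 7 of the 9 chemokine genes had a probe at least 3-fold above CTR: CXCL2, CXCL3, IL8, CCL2, CCL3, CCL4 and CCL5. At 30 min, 13 of the 14 member probes with a value were counted as higher, where 7.61% of all 12219 probes with a value were. At 2 h it was 13 of 15, where 5.32% of 16445 probes were. No member probe was lower at either time, against 4.60% and 7.76% of all probes. The 7 and 6 other probes outside the dark region were dim both in CTR and at that time, so they hold no value. Only 3 of the 21 member probes outside the dark region were detected in CTR. The others could not be counted as lower than CTR, here or at later times, so the absence of lower probes is largely set by detection.

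IL8, the main attractant of neutrophils, was dim in CTR and at every time from 4 h on by all 3 of its probes. Its probe A_73_P107676 had a level of 5.82 at 30 min and 5.78 at 2 h. This was at least 85.0-fold above CTR at 30 min and at least 82.6-fold at 2 h. Its probe A_73_P108356, with levels of 6.42 and 6.81, was at least 129-fold above CTR at 30 min and at least 168-fold at 2 h, the largest bound of any chemokine probe at 2 h. The third probe, in the dark region, was likewise bright on these 2 arrays alone, with levels of 6.17 and 6.24.

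CXCL2, which binds CXCR2, had the same on and off pattern by probe A_73_114724. It was dim in CTR and at every time from 4 h on, and its level was 5.75 at both 30 min and 2 h, at least 80.6-fold and 80.5-fold above CTR. The probe shared with GRO1, A_73_P031501, had levels of 1.63 and 1.16, at least 4.66-fold and 3.35-fold above CTR, and it was still detected at 4 h with a level of -1.57.

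CXCL3, a close relative of CXCL2, was the only neutrophil attractant detected on all 8 arrays. Its levels on slide 1 were 0.03 (CTR), -0.15 (8 h), 0.17 (12 h) and 0.86 (24 h). On slide 2 they were 5.85 (30 min), 5.75 (2 h), 4.30 (4 h) and 4.60 (16 h). The 4 arrays of slide 2 were thus all high and the 4 of slide 1 all low, with no overlap. The change from CTR was 5.82 ± 0.30 (log2) at 30 min and 5.72 ± 0.35 at 2 h. It was 4.27 ± 0.36 at 4 h and 4.57 ± 0.54 at 16 h.

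CCL2, the classical attractant of monocytes, was the only other member detected in CTR. By probe A_73_112988 its levels were 3.15 (CTR), 0.88 (8 h), 1.90 (12 h) and 3.18 (24 h) on slide 1, and 6.65 (30 min), 6.49 (2 h), 4.00 (4 h) and 3.94 (16 h) on slide 2. By probe A_73_P107661 they were 1.46 (CTR), dim (8 h), -0.52 (12 h) and 0.87 (24 h) on slide 1, and 4.58 (30 min), 4.82 (2 h), 0.49 (4 h) and 0.64 (16 h) on slide 2. Both probes were highest at 30 min and 2 h and lowest at 8 h. The difference from CTR was 11.3-fold and 8.68-fold at 30 min and 10.1-fold and 10.2-fold at 2 h for the first and second probe in turn.

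CCL3 and CCL4, also known as macrophage inflammatory proteins, were dim in CTR by all their probes. For CCL3, A_73_119009 had levels of 5.91 at 30 min and 5.96 at 2 h, and A_73_P102451 had 4.80 and 4.58. The bounds were at least 90.4-fold and 41.9-fold at 30 min, and at least 93.3-fold and 35.9-fold at 2 h. For CCL4, A_73_106624 had levels of 6.03 and 5.75, at least 97.7-fold and 80.5-fold above CTR, and A_73_P102796 had 5.55 and 4.99, at least 70.1-fold and 47.8-fold above CTR. None of these 4 probes was detected again, except A_73_P102796 of CCL4 at 12 h with a level of -0.95.

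CCL5 was the one T cell attractant past 3-fold at these times. By A_73_100958 it was dim in CTR and had levels of 6.60 at 30 min and 6.32 at 2 h, at least 116-fold and 95.7-fold above CTR. By A_73_P049591 the levels were 5.10 and 4.92, at least 51.5-fold and 45.6-fold above CTR. CCL20, the ligand of CCR6, was detected by A_73_P110576 with levels of 0.72 and 0.60 and was dim on the 6 other arrays. Its bounds of at least 2.47-fold and 2.27-fold against CTR stayed under 3-fold. CXCL10, an interferon-induced ligand of CXCR3, was dim at 30 min and barely detected at 2 h by A_73_114710, with a level of -0.35.

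**Figure D2:**
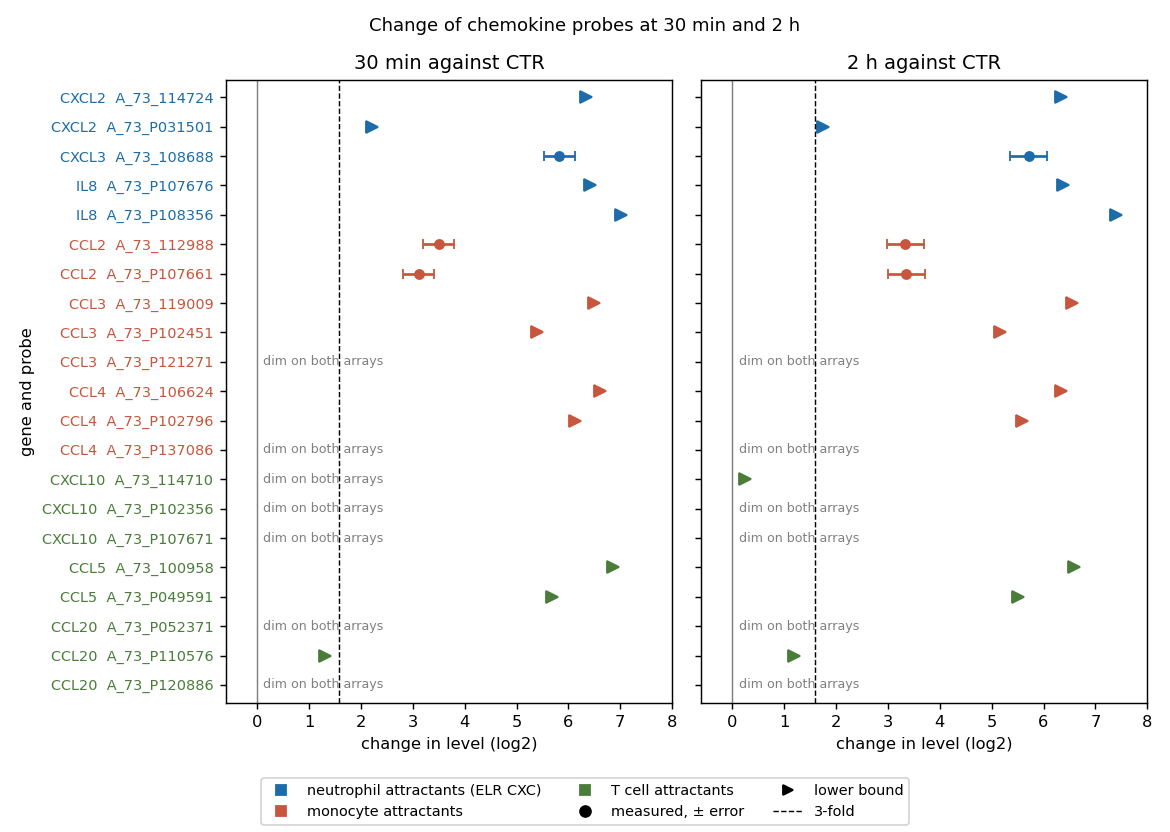
Change in level from CTR (log2, x axis) of the 21 chemokine probes outside the dark region (y axis) at 30 min and 2 h, coloured by class. Circles are measured changes with their error from the spread between spots, triangles are lower bounds, and the dashed line marks 3-fold. For 30 min the spread of CTR stands in for that of the 30 min array. All 5 probes of neutrophil attractants lie right of 3-fold, and of the T cell attractants only the 2 CCL5 probes do.

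By class, 5 of 5 probes of neutrophil attractants were counted as higher at both 30 min and 2 h, in 3 of 3 genes. For monocyte attractants it was all 6 probes with a value, of 8 in all, in 3 of 3 genes. For T cell attractants it was 2 of 3 probes with a value at 30 min and 2 of 4 at 2 h, of 8 in all, in 1 of 3 genes. Over all probes with a value the shares were 7.61% and 5.32%, and the difference between the classes was not tested. With dim probes set to the highest detection limit of any array, the median change of neutrophil attractants was 5.59 (log2) at 30 min and 5.51 at 2 h. It was 4.03 and 3.85 for monocyte attractants and 0.00 at both times for T cell attractants. The median over all 21 member probes was 3.50 and 3.36, beside 0.00 at both times over all 40296 probes outside the dark region. The T cell class held 4 of the 6 probes that were dim on all arrays, and a probe that reads no transcript counts in its median as no change.

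Within slide 2, chemokine probes were also higher at 30 min and 2 h than later. Against 4 h, 13 of 15 member probes with a value were higher at 2 h, where 6.14% of all probes were, and 13 of 15 at 30 min, where 6.95% were. Both sets of 13 held the CCL20 probe A_73_P110576, which was under 3-fold against CTR, and lacked the CXCL3 probe. None was lower, against 2.19% and 0.907% of all probes, but only the 7 member probes detected at 4 h could be. Against 16 h, 11 of 15 were higher at 2 h and 12 of 15 at 30 min, beside 4.30% and 7.06% of all probes. One, of CXCL10, was lower than at 16 h at each time, beside 5.63% and 3.91% of all probes. The IL8 probe A_73_P108356 was at least 384-fold above 4 h at 2 h, and at least 141-fold above 16 h. CCL20 was at least 5.19-fold above 4 h at 2 h by A_73_P110576, and at least 5.63-fold at 30 min.

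CXCL3 stayed under 3-fold in these contrasts at 2 h. It was 2.72-fold above 4 h at 2 h, with a change of 1.45 ± 0.41 (log2), and 2.21-fold above 16 h, with a change of 1.14 ± 0.58.

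The 30 min and 2 h arrays did not differ by 3-fold for any member probe, and 0.0929% of all probes were higher and 0.149% lower at 2 h than at 30 min. Between them, the 16 member probes detected on both differed by -0.39 to 0.90 (log2) as 30 min minus 2 h. Over all 10160 probes detected on both, the SD of the difference was 0.37, whereas it was 0.84 between 4 h and 2 h and 0.55 between 8 h and 24 h. Whether the deposited 30 min values stand for a sample independent of 2 h was not tested, so equal counts at both times are not 2 independent observations. In the scanner file of the 30 min array, 5 member probes of rows 1 to 200 were detected, namely A_73_114724 of CXCL2, A_73_P107676 of IL8, A_73_P102451 of CCL3, A_73_P102796 of CCL4 and A_73_P110576 of CCL20. They were at least 575-fold, 617-fold, 304-fold, 524-fold and 21.3-fold above CTR there. By the deposited values the bounds of the same probes were 80.6-fold, 85.0-fold, 41.9-fold, 70.1-fold and 2.47-fold. The 75th percentile of that scanner file was 48.6, against 121 to 423 on the other arrays, and a low percentile raises every level of its array. The scanner folds are therefore not on the scale of the other folds given here.

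At 4 h IL8, CCL3, CCL4 and CCL20 were dim by all their probes. CXCL3 was the only member past 3-fold, at 19.3-fold above CTR, so 1 of 7 member probes with a value was higher, beside 2.66% of all probes, and none was lower, beside 5.37%. CCL5 was still detected, with levels of 1.01 by A_73_100958 and -0.11 by A_73_P049591. The CCL2 probes disagreed, with a change of 0.85 ± 0.36 (log2) by A_73_112988 and -0.98 ± 0.36 by A_73_P107661. They disagreed alike at 16 h, with 0.79 ± 0.54 and -0.82 ± 0.54.

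At 16 h the chemokines past 3-fold were CXCL3, CCL5 and CXCL10. In all, 4 of 6 member probes with a value were higher than CTR, beside 6.00% of all probes, and none was lower, beside 5.33%. CCL5 had levels of 3.97 by A_73_100958 and 2.54 by A_73_P049591, at least 18.7-fold and 8.72-fold above CTR. CXCL10 reached its highest level of 1.92 by A_73_114710, at least 5.68-fold above CTR. The neutrophil attractants IL8 and CXCL2 and the monocyte attractants CCL3 and CCL4 were not well above background at 16 h by any probe.

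Within slide 2, 16 h was above 4 h by 7.76-fold and 6.27-fold for CCL5 by the same 2 probes and by 8.89-fold for CXCL10. These were 3 of the 7 member probes with a value, beside 3.56% of all probes, and none was lower, beside 1.35%. The changes were 2.96 ± 0.58, 2.65 ± 0.58 and 3.15 ± 0.58 (log2). CXCL3 was at about the same level on both arrays, with a change of 0.30 ± 0.58. The CCL5 probe in the dark region, which lies dark on CTR but not on slide 2, was at least 6.04-fold above 4 h at 16 h. CXCL10 was also 4.82-fold lower at 2 h than at 16 h, the reverse of all other members.

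Other T cell and interferon-linked genes were read beside these. Of 25 T cell marker probes, 5 had a value at 16 h. None was higher and 1, of CD3D, was lower, beside 6.00% and 5.33% of all probes with a value. The summed intensity of the detected ones, in units of the array's 75th percentile, was 34.7, within the 28.5 to 39.0 of slide 1. Of other chemokine genes, 2 of 9 probes with a value were higher, those of CXCL9 and CXCL14. The CXCR3 ligand CXCL9, named here after its values were seen, was detected on no array but 16 h by A_73_P043326, at least 3.43-fold above CTR. IRF1, an interferon-induced transcription factor, was at least 5.47-fold above CTR at 16 h by A_73_102589. It was the one interferon response gene past 3-fold at 16 h, by 1 of 8 probes with a value, of 25 on that list. Of 45 fibroblast marker probes, 25 had a value at 16 h. Of these 11 were also higher than CTR, those of COL1A1, COL1A2, COL3A1 and DCN, beside 6.00% of all probes. None of the 8 with a value was higher at 30 min, and 1 of 16 was at 4 h, beside 7.61% and 2.66%. None was lower at 16 h, but 3 of 8 with a value were lower at 2 h, in COL1A1, COL3A1 and DCN, beside 7.76% of all probes. At 4 h 4 of 16 were lower, in COL1A1, COL3A1 and VIM, beside 5.37%. The summed intensity of the detected fibroblast probes, in units of the array's 75th percentile, was 332 at 16 h, within the 279 to 358 of slide 1. It was 260 at 30 min, 214 at 2 h and 148 at 4 h. Of 18 common leukocyte marker probes, 5 had a value at 16 h and 3 were higher, those of CD53, LAPTM5 and PTPRC. Their list had a sum of 31.1 against 4.05 to 5.86 on slide 1. Of 21 monocyte and macrophage marker probes, 6 had a value and 2 were higher, both of CSF1R, with a sum of 20.3 against 1.60 to 3.15. Whether these markers have a part in the 16 h chemokine values was not tested.

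At 8 h, on the slide of CTR, both CCL2 probes were past 3-fold lower than in CTR, and at 12 h 1 of the 2 was. By A_73_112988 the change was -2.27 ± 0.28 (log2) at 8 h and -1.26 ± 0.33 at 12 h, and by A_73_P107661 it was at least 3.79-fold lower at 8 h and -1.98 ± 0.33 at 12 h. These were 2 of 4 member probes with a value at 8 h, where 0.192% of all probes were lower, and 1 of 5 at 12 h, where 0.457% were. With normexp background correction or a common floor the count was 1 at 8 h and 0 at 12 h, and with a log2 change of 3 as the threshold it was 0 at both times. At 24 h both probes were near CTR, with changes of 0.03 ± 0.36 and -0.59 ± 0.36. Between 8 h and 24 h, CCL2 was thus 4.91-fold higher at the later time by A_73_112988.

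The first CCL2 probe lies in column 26, close to the dark region. Bright probes within 10 spots of it read lower on CTR than on the other arrays by a median of -0.43 (log2), and those around the second probe read higher by 0.19. The median change of the 7256 probes outside the dark region that were detected on all arrays was -0.12 at 8 h and -0.28 at 12 h.

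No other chemokine moved 3-fold from CTR on slide 1. No member probe was higher at these 3 times, beside 0.552%, 0.170% and 0.098% of all probes, and none was lower at 24 h, beside 0.615%. CXCL3 changed by -0.18 ± 0.28, 0.14 ± 0.33 and 0.83 ± 0.36 (log2) at the 3 times. CCL5, dim in CTR, was detected at 8 h and 12 h by A_73_100958 with levels of 0.76 and -0.05, at least 2.03-fold and 1.16-fold above CTR.

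**Figure D3:**
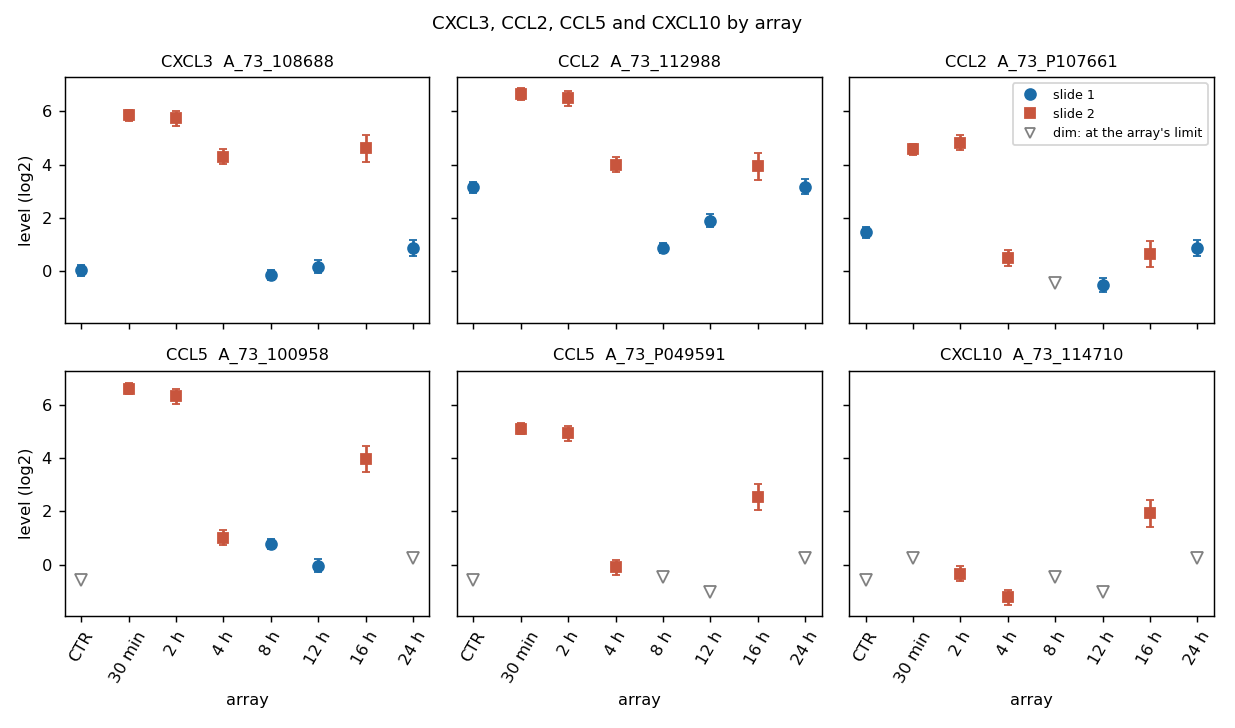
Levels (log2 intensity minus the array's 75th percentile, y axis) of 6 probes of CXCL3, CCL2, CCL5 and CXCL10 on the 8 arrays (x axis). Blue circles are slide 1, red squares slide 2, bars are the SD between spots of 1 bright probe, and open triangles stand at the array's detection limit where the probe was dim. CXCL3 is high on all 4 arrays of slide 2, CCL2 has its lowest level at 8 h, and CCL5 and CXCL10 are higher at 16 h than at 4 h.

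The other chemokines on the array moved in part with the members. Of 41 probes of 25 other chemokine genes outside the dark region, 10 had a value at 30 min and 16 at 2 h. At each time 6 were past 3-fold higher, in GRO1, CXCL6, CCL8, CCL22 and PF4, and none was lower. Over all probes with a value, 7.61% and 5.32% were higher. GRO1, detected on all arrays by A_73_P042021, had levels of 1.48 (CTR), 6.28 (30 min), 6.22 (2 h), 2.07 (4 h) and 2.52 (16 h). The neutrophil attractant CXCL6 was at least 35.5-fold and 27.1-fold above CTR at 30 min and 2 h by A_73_106079, and the monocyte attractant CCL8 at least 32.1-fold and 25.2-fold by A_73_116397. In contrast, 22 of the 41 probes were dim on every array.

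Receptors for these ligands, which leukocytes carry, were read too. Of 34 receptor probes, 8 had a value at 30 min and 14 at 2 h. Of these, 6 were higher at 30 min and 8 at 2 h, beside 7.61% and 5.32% of all probes with a value. One, of CXCR7, was lower at 2 h, beside 7.76%. CXCR2, the receptor of IL8 and CXCL2, was dim in CTR and at least 7.09-fold above it at 30 min and 8.68-fold at 2 h by A_73_115473. CXCR4, the receptor of CXCL12, was at least 37.4-fold and 29.6-fold above CTR by A_73_100200. The receptors CCR7, CXCR6 and CCRL2 were past 3-fold at both times, and CCR3 at 2 h.

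Known inducers of chemokine genes were read at the same times. Of 18 cytokine probes, 9 had a value at 30 min and 13 at 2 h, and no probe was detected in CTR. At each time 8 were higher, in IL1A, IL1B, TNF and CSF2, beside 7.61% and 5.32% of all probes with a value. IL1B was at least 141-fold and 88.1-fold above CTR by A_73_110556, and TNF at least 91.8-fold and 85.6-fold by A_73_P048896. From 4 h to 24 h none was past 3-fold. Of 20 probes of NF-kB subunits and inhibitors, 14 had a value at 30 min and 18 at 2 h. At both times 9 were higher, in NFKB1, NFKB2, RELB, NFKBIA, NFKBIE and NFKBIZ, beside the same 7.61% and 5.32% of all probes. NFKBIA, the inhibitor that NF-kB itself induces, changed by 5.14 ± 0.30 (log2) at 30 min and 4.82 ± 0.35 at 2 h by A_73_P369076. At 4 h 1 of 14 probes with a value was past 3-fold higher, of NFKBIA, beside 2.66% of all probes. At 16 h 1 of 9 was higher, of NFKBIA, and 1 lower, of RELA, beside 6.00% and 5.33%. Of 25 interferon response probes, 15 had a value at 2 h and 3 were higher, in IFIT2, IRF1 and ISG15, beside 5.32% of all probes.

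Markers of leukocytes were also bright on the arrays where the chemokines were. Of 18 probes of 7 common leukocyte genes, 12 had a value at 30 min and 15 at 2 h. At both times 11 probes in 6 genes were higher, namely PTPRC (CD45), CD53, CORO1A, ITGB2, LAPTM5 and CD48. Over all probes with a value, 7.61% and 5.32% were higher. The intensities of the detected probes of the leukocyte list, summed in units of the array's 75th percentile, were 220 at 30 min and 210 at 2 h. On slide 1 they lay between 4.05 and 5.86. Summed alike, the chemokine probes had 714 at 30 min and 679 at 2 h, against 4.44 to 12.7 on slide 1, 40.8 at 4 h and 66.4 at 16 h. PTPRC was dim in CTR and at least 7.42-fold above it at 30 min by A_73_P072536, while another of its probes, A_73_P072546, was detected on all 8 arrays with a level of 1.72 in CTR.

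Among monocyte and macrophage markers, 9 of 21 probes had a value at 30 min and 12 at 2 h. At both times 7 were higher, in CD14, CD68, CSF1R and FCGR1A. Over all probes with a value, 7.61% and 5.32% were higher. The summed intensity of the list was 120 at 30 min and 79.8 at 2 h, against 1.60 to 3.15 on slide 1. Among 12 neutrophil marker probes, 7 had a value at 30 min, all higher, and at 2 h all 12 had one and 8 were higher. They were of CSF3R, CXCR2, S100A8, S100A9 and S100A12. The list had sums of 143 and 144 against 0 to 1.96 on slide 1. Of the 12, 6 had a value at 4 h and 4 at 16 h. At each time 3 were still higher, those of S100A8, S100A9 and S100A12, beside 2.66% and 6.00% of all probes. The sums of the list were 41.2 and 53.0. CXCR2 stands on both the receptor and the neutrophil list, and epithelial cells can also make the S100 proteins.

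Many T cell, B cell and endothelial marker probes held no value. Over all probes with a value, 7.61% were higher and 4.60% lower at 30 min, and 5.32% and 7.76% at 2 h. Of 25 T cell probes, 9 had a value at 30 min and 13 at 2 h. Of these 2, of CD3E and LCK, were higher at 30 min. At 2 h 1, of CD3E, was higher and 1, of CD4, was lower. The sums of the list were 45.3 at 30 min and 34.7 at 2 h, against 28.5 to 39.0 on slide 1. Of 7 B cell probes, 3 with a value, none was higher and 1, of PAX5, was lower at 2 h, with sums of 5.65 and 5.37 against 6.52 to 10.9. Of 13 endothelial probes, 1 had a value at 30 min and 2 at 2 h, and 1, of VWF, was higher at both times.

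Among epithelial markers, the luminal keratin KRT8 was lower. Of the 20 probes, 15 had a value at 30 min and 19 at 2 h, and none was higher at either time. In KRT8 and, at 2 h, KRT5, 4 were lower at 30 min and 5 at 2 h. Over all probes with a value, 4.60% and 7.76% were lower. The summed intensity of the epithelial list was 254 at 30 min and 268 at 2 h, against 470 to 683 on slide 1, and 371 and 551 at 4 h and 16 h. The median change of the list, with dim probes at the highest detection limit, was -0.88 (log2) at 30 min and -0.24 at 2 h, against -0.24 to -0.20 on slide 1, while that of 39 housekeeping probes was -0.46 and -0.62. KRT8 changed by -3.70 ± 0.30 (30 min), -2.62 ± 0.35 (2 h), -2.84 ± 0.36 (4 h) and -2.28 ± 0.54 (16 h) on the log2 scale by A_73_108833. No epithelial probe was past 3-fold at 8 h, 12 h or 24 h. KRT8 was thus lower on every array of slide 2 and on none of slide 1, and slide and heat cannot be told apart for it. The part of leukocyte RNA in the chemokine values was not tested, and in RNA of whole cultures a larger number of cells of a type and more RNA per cell cannot be told apart.

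**Figure D4:**
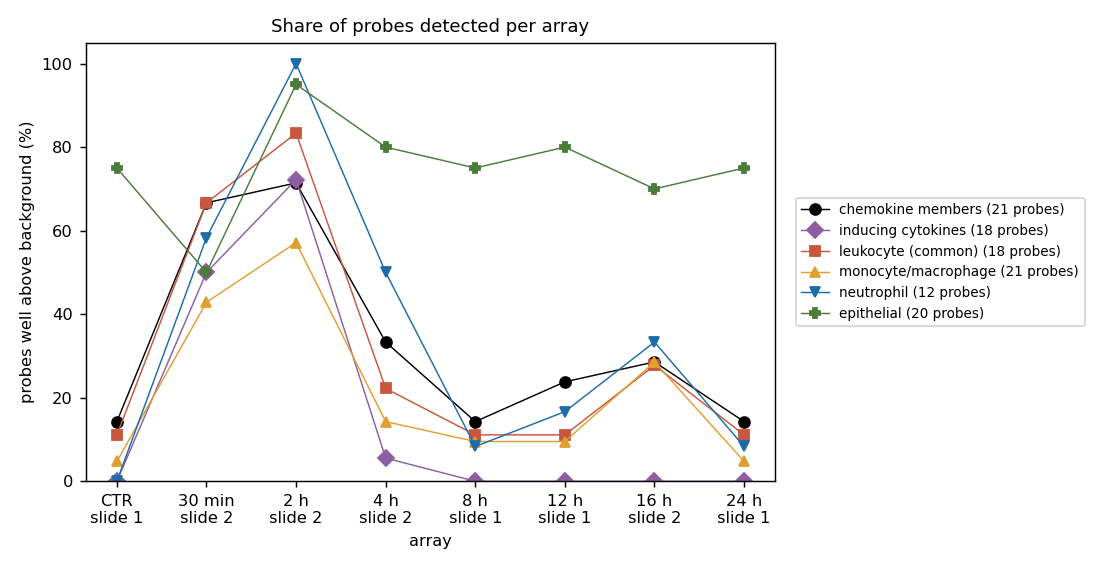
Share of probes well above background (%, y axis) on each of the 8 arrays (x axis) for the chemokine members, inducing cytokines and 4 marker lists, with the number of probes in the legend. The chemokine line is highest at 30 min and 2 h, together with those of cytokines and leukocyte markers, and lines only join the arrays in time order.

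Chemokine probes were also compared with their own mean profile over the arrays. Pearson's r of each of the 15 member probes detected on at least 2 arrays with their mean profile was between 0.82 (CXCL3) and 0.99, apart from -0.07 for A_73_114710 of CXCL10. Many of these probes were detected at 30 min and 2 h only, and each is part of the mean. A high r with this profile was thus partly built in and does not show a shared pattern by itself. Over all other genes, the 5 whose probe followed this profile most closely over the 8 arrays were LBR, GRO1, FCGR1A, LRCH4 and CCDC88B, each with r of 0.996 or above. LBR, a receptor of the nuclear envelope, was detected by A_73_121459 with levels of 0.00 in CTR, 2.08 at 30 min and 2.04 at 2 h. The correlations rest on the 30 min and 2 h arrays being high together, which share a slide, and 517 of the 10757 probes compared had r over 0.95.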

How the data were processed

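Each of the 8 conditions was hybridised to 1 bovine 4x44K array with 1 dye (Cy3). The authors read each spot of the scans with Feature Extraction 9.5.3.1, and the deposited processed intensity is background-subtracted and detrended within an array but not scaled between arrays. The authors also deposited log2 values, which are relative to each array's 75th percentile and to each probe's median over arrays. The deposited mean and background intensities served for 1 alternative. Flags for spots well above background, outliers and saturation are other values that the authors deposited.

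Here log2 intensities minus the 75th percentile were averaged over the spots of a probe (43803 spots, 43653 probes), leaving out spots marked as outliers. For 30 min the deposited log2 value plus the median offset of the probe over the other 7 arrays was used, and a probe counted as detected where it reached 0.24 (log2), the highest limit found on those 7. The number of arrays limits the precision. The calls were also run on simulated probes drawn from those detected in CTR, with no slide difference. That simulation does not cover bounds from probes dim in CTR. Named were all member probes, listed genes past 3-fold at 30 min or 2 h, and the 5 genes most like the members over the arrays, among named probes detected on at least 2. CXCL9 was added later. CXCL14, COL1A2, VIM, RELA and CD3D are named for times from 4 h on. The interferon response count at 30 min is not reported here. Members and lists were chosen with earlier results of these data known. Probe names and bovine coordinates are those of the array files, and 5 of the 10 symbols are in the buffalo gene table used here. Tools were Python 3.11.15, pandas 2.3.3, R 4.3.3 and limma 3.58.1. Alternatives were normexp (offset 50), quantile and median scaling, the percentile over bright probes, deposited values, the 30 min scanner intensities, a log2 change of 3, a common floor, outliers kept and the dark region kept.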

Additional observations from a re-analysis of the deposited data

How the results depend on the processing

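No paired analysis was possible because each condition had 1 array, so that the groups share a single replicate number. Over 52 counts and medians and 10 alternatives, 388 of 422 values stayed within 1.5 times the reported count or within the error of the median, 34 moved and none changed sign. The 13 higher probes at 2 h stayed within 1.5 times under all alternatives that bear on them. With the 30 min scanner intensities, 5 member probes were higher and 1 lower at 30 min, the medians of all members, neutrophil and monocyte attractants were 0.00, and against 4 h 5 were higher and 2 lower, against 16 h 5 higher and 4 lower. With these intensities the CCL2 probes A_73_112988 and A_73_P107661 turned to -2.30 and -1.26 (log2) at 30 min. A_73_P107661 lies in the rows from 340 down, where that scanner file is not sound. A_73_112988 lies at row 316, between the ranges of rows that were compared, so the scanner file was not checked there. With normexp the medians of members, neutrophil and monocyte attractants were 4.06, 6.98 and 4.76 at 30 min, those of members and monocyte attractants were 3.93 and 4.26 at 2 h, 1 probe was lower at 8 h and 0 at 12 h, and the one lower probe against 16 h (CXCL10) was lost at 30 min and 2 h, leaving 0. When arrays were scaled to their median, the medians were 4.45, 6.89 and 5.20 at 30 min and 4.06, 6.65 and 4.77 at 2 h, 3 probes were higher at 4 h, and 0 were lower at 2 h against 16 h. That scaling moved the median of bright probes at 4 h from -0.03 to 1.06 (log2). With the percentile over bright probes, 0 were lower at 30 min against 16 h. With a log2 change of 3, 0 were lower at 8 h and 12 h, and 0 against 16 h on the early arrays, and 1 was higher at 16 h against 4 h. With the common floor, 1 was lower at 8 h and 0 at 12 h. Of 386 values of single probes, 309 stayed within their error, 75 moved and 2 changed sign. Other causes were not tested. The array with the highest detection limit, 24 h, had 23.2% of probes well above background and CTR 26.5%, which limits the bounds.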
